A study of Caenorhabditis elegans with 2 samples.

Results

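The cytosolic ribosomal protein genes of Caenorhabditis elegans were examined for peaks of ZFP-3, which belongs to the zinc finger proteins. They were taken as all nuclear protein-coding genes of the WBcel235 annotation whose symbols begin with rpl-, rps- or rla-, which gave 81 of 19973 genes. By symbol, 50 of these were counted as large subunit genes, including the rla- genes for the acidic stalk proteins, and 31 as small subunit genes. Chromatin immunoprecipitation and sequencing had been done on whole L4 larvae of strain RW12271, aged 48 h, grown from L1 larvae that were starved after bleaching. In this strain CRISPR had inserted TY1, EGFP and 3xFLAG tags into zfp-3 on the X chromosome (allele st12271), and an antibody against GFP was used on chromatin sonicated to 200 to 800 bp. The study had 1 group of 2 biological replicates, both with the tagged allele, and no second genotype, stage or treatment. Peaks from an untagged strain were not analysed here. All tissues of the larva are mixed, so strong binding in few cells and weak binding in many cells cannot be told apart.

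Ribosomal proteins assemble with ribosomal RNA into the large subunit, which joins amino acids, and the small subunit, which reads the messenger RNA. Cells need them in matched amounts, and growing animals spend much of their transcription on these genes. In C. elegans several of the genes hold small nucleolar RNA genes in their introns, whose products guide chemical modification of ribosomal RNA.

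A gene was called bound where its promoter window, which runs from 1000 bp before the 5′ end to 200 bp after it, held the summit of a peak in the conservative list that the authors made from both replicates. The sequences around several of these summits carry the pattern that recurred at the bound genes, namely the 6-letter words ACCGTA and GAGTGT. In the lines that follow, each sequence is 101 bases of the ce11 genome centred on a summit and read on the strand of the gene, and capitals mark the words on either strand (TACGGT and ACACTC on the opposite one). The first set holds the 4 strongest member sites that carry both words, followed by a site with ACCGTA alone.
rpl-3, chrIII:3867522-3867622, plus strand: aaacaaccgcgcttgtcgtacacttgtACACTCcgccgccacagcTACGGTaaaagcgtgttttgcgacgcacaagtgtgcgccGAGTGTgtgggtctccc
rpl-15, chrIV:654880-654980, minus strand: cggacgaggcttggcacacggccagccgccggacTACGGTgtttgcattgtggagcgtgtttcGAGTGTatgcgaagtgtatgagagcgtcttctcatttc
rpl-20, chrIV:4750017-4750117, minus strand: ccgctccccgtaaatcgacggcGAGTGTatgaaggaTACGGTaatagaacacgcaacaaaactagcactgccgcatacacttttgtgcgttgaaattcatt
rps-1, chrIII:4475596-4475696, plus strand: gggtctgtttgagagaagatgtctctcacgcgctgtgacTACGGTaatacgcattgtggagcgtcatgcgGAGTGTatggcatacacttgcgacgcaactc
rpl-43, chrII:14154505-14154605, plus strand: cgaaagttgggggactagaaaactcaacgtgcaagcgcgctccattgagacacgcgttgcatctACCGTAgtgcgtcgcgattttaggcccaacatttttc
The second set shows sites at which GAGTGT and ACCGTA lay on one strand with 1 base between them; at rps-23 the pair reads on the strand opposite to the gene.
rps-23, chrIV:12391283-12391383, minus strand: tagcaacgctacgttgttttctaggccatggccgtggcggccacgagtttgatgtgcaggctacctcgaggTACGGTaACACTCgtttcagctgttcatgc
rpl-11.2, chrX:2242922-2243022, minus strand: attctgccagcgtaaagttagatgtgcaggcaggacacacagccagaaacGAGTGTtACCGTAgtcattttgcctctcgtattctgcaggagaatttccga
rpl-29, chrIV:13881896-13881996, plus strand: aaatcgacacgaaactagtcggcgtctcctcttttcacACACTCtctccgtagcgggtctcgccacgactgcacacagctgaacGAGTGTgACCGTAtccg
rpl-6, chrIII:7208057-7208157, plus strand: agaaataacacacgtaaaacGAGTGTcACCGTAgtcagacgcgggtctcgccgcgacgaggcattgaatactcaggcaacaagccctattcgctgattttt
rpl-22, chrII:5055318-5055418, plus strand: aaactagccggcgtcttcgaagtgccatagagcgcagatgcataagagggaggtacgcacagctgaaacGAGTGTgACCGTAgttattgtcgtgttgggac
The third set shows 2 strong sites that hold neither word.
rpl-35, chrIII:7854645-7854745, plus strand: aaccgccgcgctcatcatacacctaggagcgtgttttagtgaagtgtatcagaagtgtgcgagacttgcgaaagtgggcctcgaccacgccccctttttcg
rpl-12, chrIV:13240606-13240706, minus strand: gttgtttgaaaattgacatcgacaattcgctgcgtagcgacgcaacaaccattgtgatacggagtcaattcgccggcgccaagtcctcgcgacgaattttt

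ZFP-3 summits lay in the promoter windows of 32 of the 81 ribosomal protein genes, or 39.5% (exact binomial 95% interval 28.8% to 51.0%). By the same rule 4.45% of all protein-coding genes were bound, 889 of 19973. The 32 genes had 31 distinct summits, since rps-14 and rpl-36 share one. In the thresholded list of replicate 1 alone, 24 members had a summit in the window, 29.6% against 2.49% of all protein-coding genes. In that of replicate 2 alone the count was 25, or 30.9% against 2.3%. Both subunits were represented. Of the large subunit genes 18 of 50 were bound (36.0%, exact 95% interval 22.9% to 50.8%), and of the small subunit genes 14 of 31 (45.2%, 27.3% to 64.0%). These intervals overlap over most of their length and cover counting error only. The order turned when each summit was given to the protein-coding gene with the nearest 5′ end alone, with 14 large (28.0%) and 7 small subunit genes (22.6%).

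Peak signal is the authors' deposited measure of peak strength. The sources used here do not state its unit, and read depth is unknown from peak lists, so signals are compared within a list. Where values of the 2 replicates are set side by side below, which one is higher is a description only. The bound members had a median signal of 137, with a range of 72.0 to 778, against a median of 94.6 over all 889 bound protein-coding genes. Over the 733 other promoter peaks, among them the weaker of the 2 summits at rps-18, the median was 87.0. The median was 128 for the 18 large subunit genes and 165 for the 14 small subunit genes, and the 2 ranges overlapped. Of the 31 distinct summits, 3 were among the 20 strongest peaks of the list of 2010, 9 among the strongest 100, and 20 among the strongest 500.

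**Figure D1:**
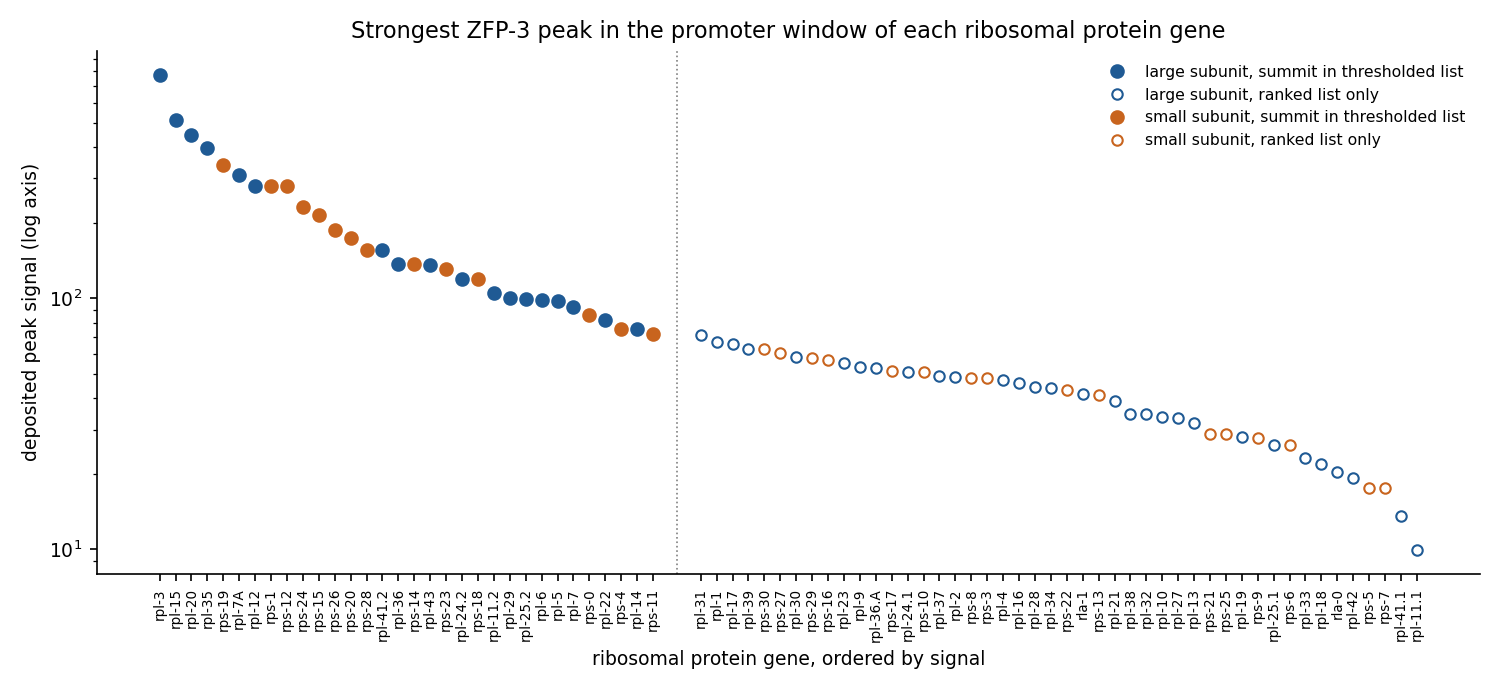
Signal of the strongest peak with its summit in the promoter window of each ribosomal protein gene, on a log axis, for the 32 bound members (filled) and for the 46 unbound members with a summit in the authors' unthresholded ranked list (open). Large subunit genes are blue and small subunit genes orange; the bound members run from 778 at rpl-3 to 72.0 at rps-11, and the open points all lie at or below 71.6.

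The 4 strongest member sites belonged to large subunit genes. rpl-3, whose protein reaches towards the peptidyl transferase centre, had the strongest peak of the whole list, at chrIII:3867071-3867724, with a signal of 778 and values of 468 in replicate 1 and 337 in replicate 2. Its summit lay 282 bp upstream of the 5′ end, and no other gene had it in its window. rpl-15, another protein of the large subunit core, followed at chrIV:654819-655041 with 514 in the joint list, 276 in replicate 1 and 244 in replicate 2. This summit lay 354 bp upstream of rpl-15 and also 460 bp upstream of the divergent gene K11H12.8. rpl-20 had 447, with 242 and 218 in replicates 1 and 2, at chrIV:4749973-4750169. The summit was 289 bp upstream of rpl-20 and closer, at 173 bp, to the 5′ end of the divergent gene Y17G9B.5. rpl-35, which encodes a protein near the mouth of the peptide exit tunnel, had 398, with 219.7 and 175 in the replicates, at chrIII:7854592-7854790. It stood alone, 439 bp upstream of the gene. In all 4 the value of replicate 1 was the higher one.

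A further pair of large subunit sites lay close to the 5′ end itself. At rpl-7A (chrIV:4390558-4390762) the signal was 310.3, with 169 in replicate 1 and 141 in replicate 2, and the summit lay 74 bp upstream. At rpl-12, whose protein forms the base of the stalk, the signal was 281, with 158 and 138 in the replicates, at chrIV:13240612-13240745 and only 5 bp upstream. The same summits lay 180 bp upstream of set-21 and 388 bp upstream of lin-54, a DNA-binding subunit of the DREAM repressor complex.

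Among small subunit genes the strongest site was that of rps-19, the worm counterpart of a gene mutated in human Diamond-Blackfan anaemia. Its signal was 341, with 183 in replicate 1 and 157 in replicate 2 (chrI:9625989-9626152), 274 bp upstream of rps-19 and 171 bp upstream of hsr-9. rps-1 had 280.4, with 160.2 and 115 in replicates 1 and 2 (chrIII:4475577-4475734), at 272 bp upstream. Its divergent neighbour, 496 bp from the summit, was ifet-1, which encodes a translational repressor. rps-12 had 279, with 141 and 132 in the replicates (chrIII:5679043-5679207), at 177 bp upstream and 116 bp from ska-3. Thus at rps-19 and rps-12 the neighbour's 5′ end was the nearer one. rps-24 had 231 and was, unlike these, higher in replicate 2, with 137 against 93.7 (chrIV:385501-385640, 335 bp upstream). rps-15 had 214, with 122 in replicate 1 and 95.8 in replicate 2 (chrI:8816516-8816622, 382 bp upstream of rps-15 and 399 bp upstream of F36A2.9).

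The next sites were of intermediate strength. rps-26, at the exit path of the messenger RNA, had 188, with 88.0 and 96.6 in replicates 1 and 2 (chrI:14759325-14759660); its summit was 437 bp upstream of rps-26 and 20 bp upstream of tmem-107. rps-20 had 174, with 94.9 and 79.1 (chrI:14469275-14469367), 227 bp upstream of the gene and 170 bp upstream of ekl-4. rps-28 had 156, with 65.8 and 104 (chrIV:1659091-1659426), at 432 bp upstream. Of these 3 small subunit genes, rps-20 had the higher value in replicate 1 and the other 2 in replicate 2. rpl-41.2, which encodes the shortest ribosomal protein, also had 156, with 71.1 and 90.6 (chrI:4789863-4790198), 261 bp upstream with no other gene sharing the summit. The summit at chrIII:7179699-7180034 served rps-14, a platform protein of the small subunit, at 279 bp and the divergent rpl-36 at 384 bp, with a signal of 137 and values of 65.3 and 64.5. It is the one bound site that joins a small and a large subunit gene.

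rpl-43 had 136, with 82.8 in replicate 1 and 49.9 in replicate 2 (chrII:14154387-14154722). Its summit was the most distant of all members, 739 bp upstream, and lay 182 bp upstream of Y48B6A.1. rps-23, a protein of the decoding centre, had 130.5, with 67.1 and 71.7 (chrIV:12391165-12391500), 280 bp upstream of the gene and 254 bp upstream of dpm-3. rpl-24.2 had 119, with 69.9 and 60.6 (chrI:9669109-9669444), 138 bp upstream and inside an intron of C03D6.1. rps-18 had 119 at its stronger summit of 2, with 53.6 and 44.8 (chrIV:14824810-14825145), 701 bp upstream and inside an exon of sec-61.A, a gene of the endoplasmic reticulum translocon. rps-18 was the strongest bound member missing from one of the single-library thresholded lists, that of replicate 2.

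The remaining 11 bound members had signals from 72.0 to 105. They were rpl-11.2 with a signal of 105 and rpl-5 with 97.4, both of whose proteins travel to the large subunit together with 5S ribosomal RNA, and rpl-29 with 100.3, rpl-25.2 with 99.8, rpl-6 with 98.8, rpl-7 with 92.3, rpl-22 with 82.3 and rpl-14 with 75.3 in the large subunit. In the small subunit they were rps-0 with 85.6, rps-4 with 75.3 and rps-11 with 72.0. In single libraries these 11 sites ranged from 31.8 to 66.1 in replicate 1 and from 33.6 to 62.1 in replicate 2.

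The summits of 21 of the 32 bound members lay in a peak of both single-library thresholded lists, 10 of 18 in the large and 11 of 14 in the small subunit. A further 6 were in 1 of these lists, and 5 were in neither, namely rpl-29, rpl-5, rps-4, rpl-14 and rps-11. All 32 had a peak over the summit in the ranked lists of both libraries. The 21 members found in both lists had a median signal of 214 and the other 11 a median of 97.4. Over the 31 distinct summits the libraries' signals were correlated with rho = 0.878 (Spearman) and r = 0.966 (Pearson), given as a description, since the joint list was chosen for peaks that recur. The ratio of replicate 1 to replicate 2 had a median of 1.13 and ran from 0.614 at rpl-22 to 1.66 at rpl-43, and 22 of 31 summits were higher in replicate 1. Since read depth and signal scale are unknown for both lists, this ratio was not read as a difference between sites or libraries. The summit of the same site shifted by at most 46 bp in replicate 1 and 76 bp in replicate 2. A further thresholded list of the series, with 1458 peaks, held 30 of the 32, without rps-4 and rpl-14. How often the summits of all bound protein-coding genes recur in these lists was not counted, so these counts describe the members alone.

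**Figure D2:**
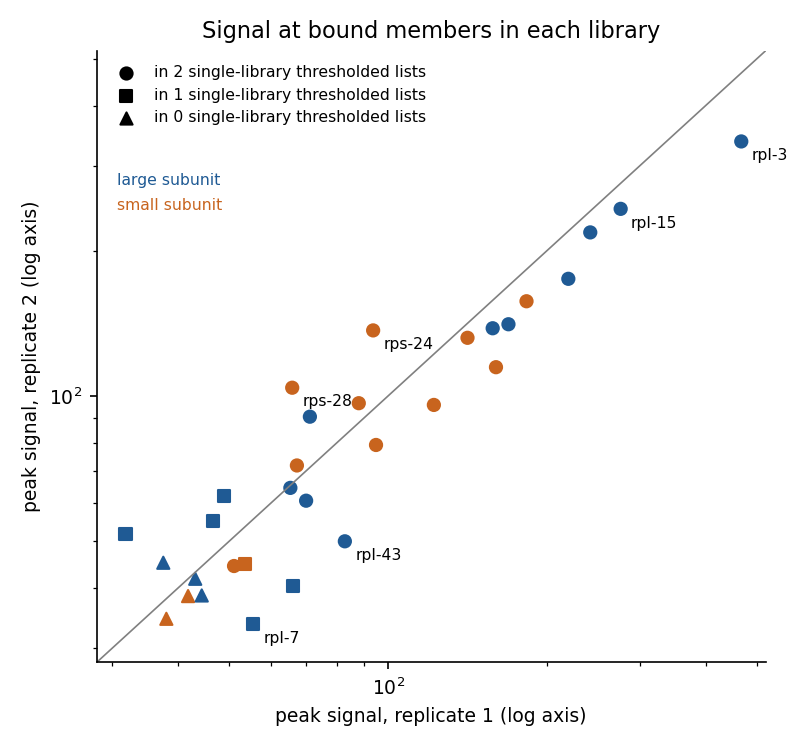
Peak signal at the 31 distinct member summits in the ranked list of replicate 1 (x axis) and of replicate 2 (y axis), both log axes, with the line of equal values; the shape gives how many single-library thresholded lists hold the site and the colour the subunit (the summit of rps-14 and rpl-36 has the large subunit colour). Circles reach from rps-0 to rpl-3, squares and triangles gather at the low end, and 22 of 31 points lie below the line.

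Most member summits lay at similar distances from their genes. The median distance of the strongest summit from the 5′ end was 283 bp upstream, with quartiles at 382.5 and 258.75 bp upstream. Over all 889 bound protein-coding genes the median was similar, 266 bp upstream, but the quartiles lay at 491 and 125 bp. In a band of 200 to 450 bp upstream, chosen after the positions were seen, lay 25 of 32 member summits (78.1%) and 296 of 889 over all bound genes (33.3%). Within 500 bp upstream lay 30 of 32 members, against 65.5% of all bound genes, and no strongest member summit lay downstream of the 5′ end. The median was 283 bp upstream in the large and 302.5 bp upstream in the small subunit.

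**Figure D3:**
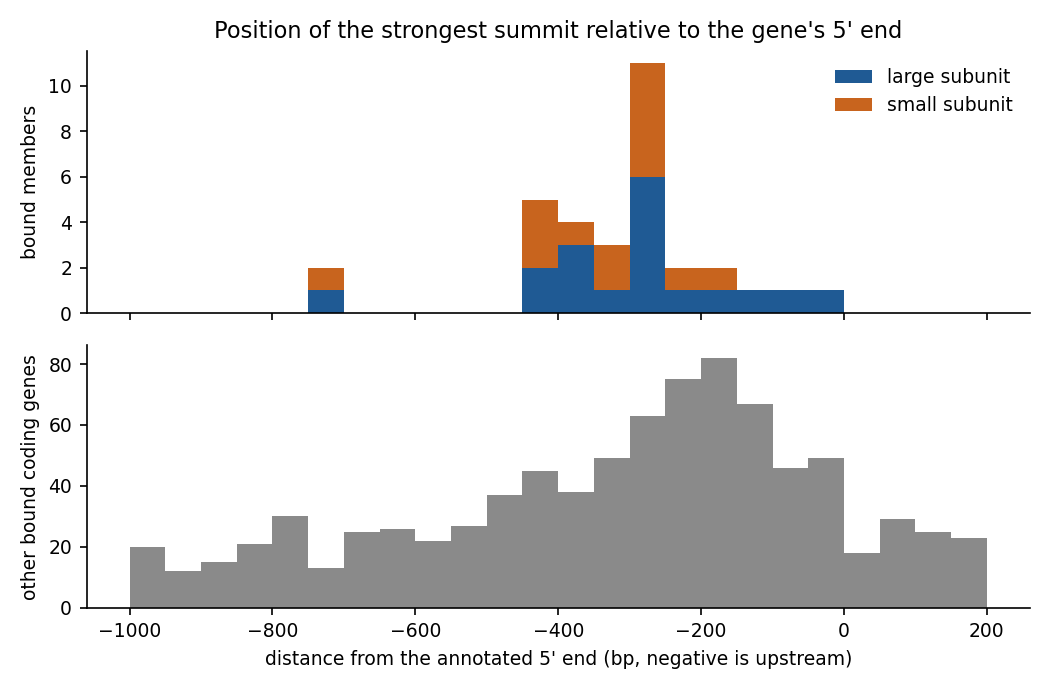
Number of genes by distance of the strongest summit from the annotated 5′ end, in bins of 50 bp with upstream negative, for the 32 bound ribosomal protein genes (top, by subunit) and the 857 other bound protein-coding genes (bottom). The members crowd at 450 to 200 bp upstream, while the other genes spread over the whole window with their highest bins nearer to the 5′ end.

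Many of these summits sit between 2 genes. In 21 of 32 bound members (65.6%) the summit also lay in the window of another protein-coding gene, and in 19 of these the neighbour was transcribed away from the site in the other direction. Over all bound protein-coding genes 368 of 889 (41.4%) shared their summit. Of the shared members 11 were large and 10 small subunit genes. For 21 of 32 the member had the nearest 5′ end of any protein-coding gene. For the other 11 another gene did, which for rpl-36 was rps-14 and for rps-18 was sec-61.A, with a 5′ end 286 bp from the summit. The shared members had a median signal of 156, and the 11 with the summit in no other protein-coding window one of 119. A small nucleolar RNA gene had the summit in its window at 7 of 32 members, among them rpl-15, rpl-7A, rps-12, rps-26 and rps-23. The same share over all bound protein-coding genes was not counted. With genes of every kind counted, 8 of 32 summits lay in the window of the member alone. The summit was intergenic at 27 members, inside noncoding RNA genes at rps-1, rpl-5 and rpl-7, and inside protein-coding genes at rpl-24.2 and rps-18.

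The 49 unbound members were not free of signal. In the authors' ranked list, which has no reproducibility threshold, 46 of them had a summit in the window. Such a summit was common, found at 14153 of all 19973 protein-coding genes (70.9%) and at 78 of 81 members (96.3%), bound ones included. The strongest ranked summits of the unbound members had a median signal of 43.6 and a range of 9.97 to 71.6. Over the 13264 unbound protein-coding genes with such a summit the median was 26.2. The thresholded list had been cut at a scaled reproducibility score of 830 on a scale to 1000. All 32 bound members had the highest score, 1000, at their strongest summit. How many other peaks of the list reach this upper end of the scale was not counted. The unbound members nearest to the threshold were rpl-1 with a best score of 785, rpl-31 with 748 and rps-16 with 742. By signal the lowest bound member was rps-11 with 72.0, and the highest unbound one was rpl-31, an exit tunnel protein, with 71.6. rpl-31 had 26.9 in replicate 1 and 41.1 in replicate 2. The next unbound members by signal were rpl-1 with 66.9, rpl-17 with 65.7, and the divergent pair rps-30 and rpl-39, whose common summit had 63.0, with 44.1 in replicate 1 and no summit in the window in replicate 2. rpl-9 was the one unbound member called in a single library, replicate 2, with 44.0 at 233 bp upstream. None of the 3 rla- genes was bound, and rps-2, rpl-26 and rla-2 had no summit in the window in the ranked list of the series.

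Where a symbol is divided by a point and a number into a pair of loci, 1 locus of each pair was bound. rpl-11.2 was bound with a signal of 105 while rpl-11.1, whose protein is identical at 91.3% of residues, had a ranked peak of 9.97. rpl-41.2 had 156 and rpl-41.1, which encodes the same 22 residues, had 13.7. These loci are neighbours on one strand, and the bound summit lies in the 699 bp between rpl-41.1 and rpl-41.2. rpl-25.2 had 99.8 and rpl-25.1, with 70.5% identity, had 26.1. rpl-24.2 had 119 and rpl-24.1 had 50.9. These proteins match at only 29.7% of aligned residues, and rpl-24.2 resembles a human factor of ribosome assembly rather than a ribosome component. By its symbol, rpl-24.2 is still counted here with the large subunit. In all 4 pairs the bound locus was the one whose symbol ends in 2. A further 2 pairs share a number but encode unlike proteins. rpl-7 and rpl-7A (24.4% identity) were both bound, while of rpl-36 and rpl-36.A (23.9%) the first was bound with 137 and the second had a ranked peak of 52.9.

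By count, the bound share differed among chromosomes. On chromosome IV 11 of 18 members were bound, where the share over all protein-coding genes was 4.72%, and on III 8 of 18 against 7.20%. On I it was 9 of 25 against 5.63%, on II 3 of 10 against 4.23%, and on X 1 of 2 against 3.30%. On chromosome V it was 0 of 8, where the exact 95% interval reaches 36.9%. Of all protein-coding genes on V 2.92% were bound. Where the nearest upstream protein-coding gene lay on the opposite strand, 23 of 53 members were bound, against 5.52% of all such genes. Where it lay on the same strand and at least 500 bp away, 8 of 17 were bound, against 2.70%. Where it lay on the same strand within 500 bp, 0 of 9 were bound (exact interval up to 33.6%), against 5.47%. Members with a small nucleolar RNA gene inside them were bound in 7 of 13 cases and the others in 25 of 68. The exact intervals overlap (25.1% to 80.8% and 25.4% to 49.3%). The share over all protein-coding genes that hold such a gene was not counted.

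The words near the summits were counted over both strands, and those near the most distinct member summits are named. ACCGTA lay within 50 bp of 13 of the 31 member summits (41.9%), as seen in the sequences of rpl-3, rpl-15, rpl-20 and rps-1, against 44 of 733 other promoter peaks (6.0%). GAGTGT lay near 12 of 31 (38.7%), against 6.14%, and within 25 bp it lay near 7 of 31 (22.6%). The overlapping word CGAGTG lay near 10 (32.3%, against 4.23%). A further 4 words lay near 9 summits (29.0%) each. Of these, AAAAAT was about as frequent near other promoter peaks, at 31.7%, and so was GAAAAA, at 28.0%. The word CCGTAG, which overlaps the leading one, stood at 3.14% there, and the last of the 4, GCACAC, at 8.19%. Since the words were picked for their counts at these summits, those counts are a description.

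Both words stood together near 9 of 31 member summits and near 6 of 733 other promoter peaks. At least 1 of them was near 16 member summits (51.6%, against 11.3%), and 15 had neither, rpl-35, rpl-7A, rpl-12, rps-12 and rps-24 among the strong ones. From the summit to the nearest ACCGTA the median was 11.5 bp, and to the nearest GAGTGT 22.0 bp. The median GC content of the member windows was 52.5%, against 45.5% for other promoter peaks, and its part in the result was not tested. In the whole promoter windows of 1200 bp, ACCGTA was present at 18 of 32 bound members (56.3%), at 23 of 49 unbound members (46.9%), which were not used in choosing it, and at 28.6% of all protein-coding genes. GAGTGT was present at 16 of 32, at 46.9% and at 31.7% of these. Near the strongest ranked summits of the unbound members, 44 in number, ACCGTA was found at 4 and GAGTGT at 6.

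**Figure D4:**
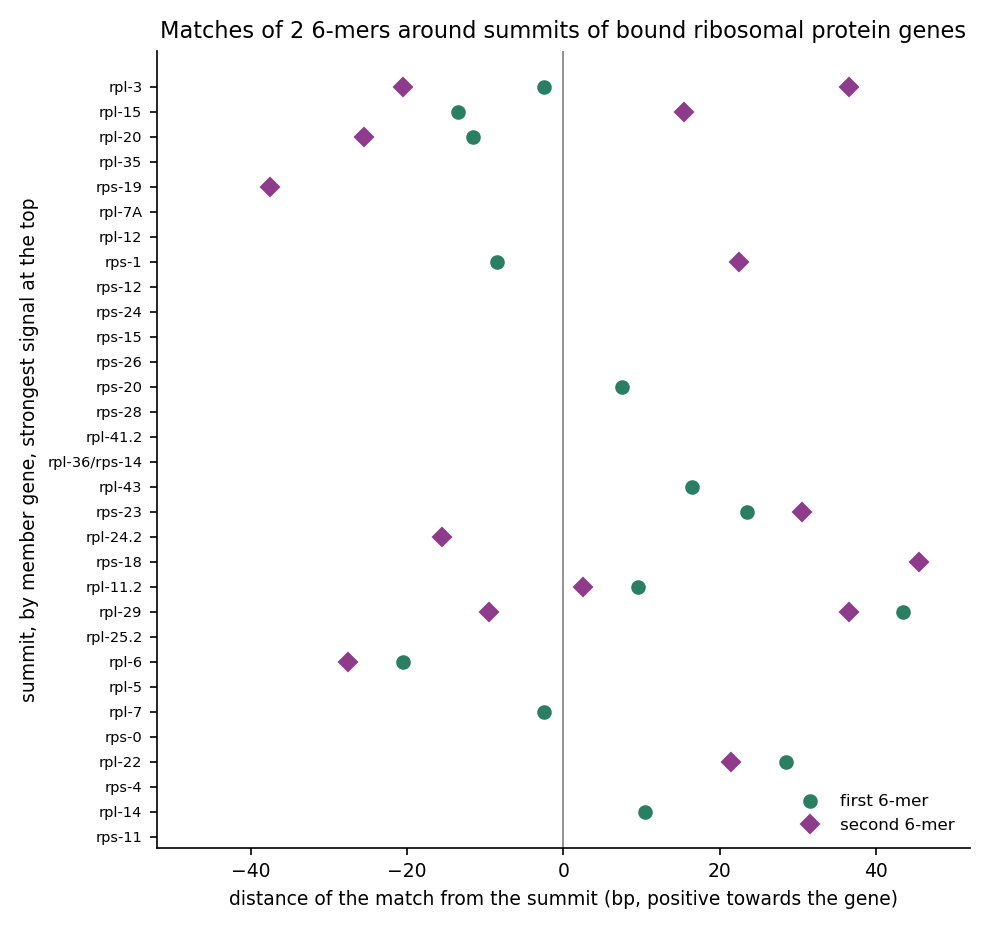
Position of each match of ACCGTA (first 6-mer, circles) and GAGTGT (second 6-mer, diamonds), on either strand, within 50 bp of the 31 member summits, ordered by signal with the strongest at the top; the x axis gives distance from the summit in bp. Matches occur at strong and weak sites alike, 9 rows hold both symbols, and 15 rows hold none.

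One spacing of the words recurred. At rps-23, rpl-11.2, rpl-29, rpl-6 and rpl-22, which had signals of 82.3 to 130.5, GAGTGT was followed on the same strand by 1 base and then ACCGTA. The other 4 sites, which were stronger, differed from each other. At rpl-15, rpl-20 and rps-1 the words lay on opposite strands with 23, 8 and 25 bases between them, and at rpl-3 on the same strand in the reverse order with 12 bases between. The paired form with 1 base between was taken as the gap held by the most member windows, bound and unbound. Its counts at members are therefore a description. It occurred 34 times in the 6 nuclear chromosomes. Of the 34 sites 13 lay in the promoter windows of ribosomal protein genes. They lay in the windows of 14 of 81 members (17.3%), among them rps-23, rpl-11.2, rpl-29, rpl-6 and rpl-22. Several of the sites, such as those of rpl-22, rps-23 and rpl-29, also lay in the window of a coding gene that is not a member. Of all 19973 protein-coding genes, these members and the neighbours that share their sites included, 46 (0.230%) had such a site. A further site, at chrI:5486000-5486012, lay between the annotated 5′ end of rpl-19 and its coding start. That site is outside the window of rpl-19 and was counted as lying elsewhere. With any of the other 20 gaps from 0 to 20 bases no member window held the words in this order and orientation, and the genome held 1 to 20 sites for each gap.

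**Figure D5:**
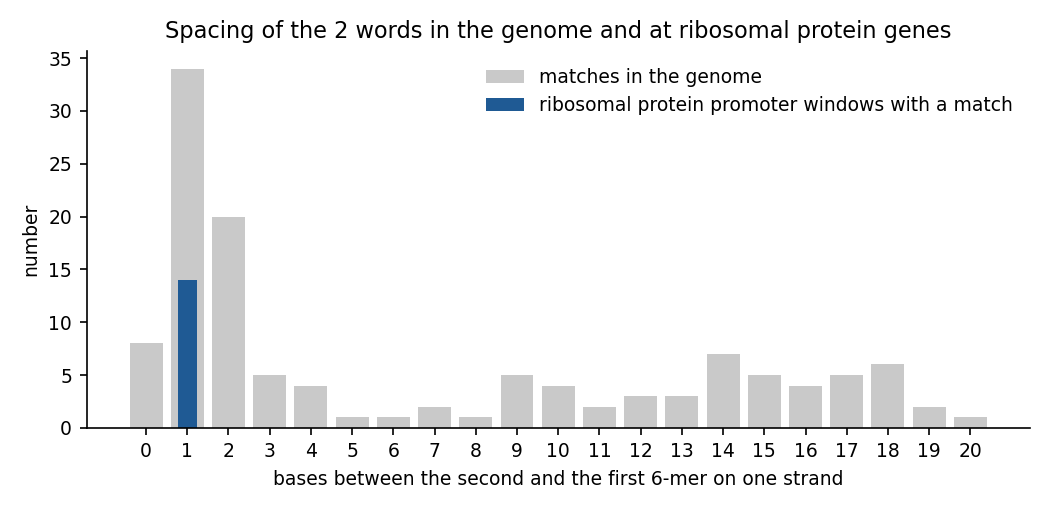
Number of sites in the genome (grey) and number of ribosomal protein promoter windows with a site (blue) for GAGTGT followed by ACCGTA on one strand, by the number of bases between them. The blue bar appears at a gap of 1 base, with 14 member windows and 34 genome sites, and at no other gap. That gap was the one picked for its count of member windows.

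The pair was found at bound and unbound members in like proportion, 6 of 32 bound and 8 of 49 unbound, and in both subunits, 8 of 50 large and 6 of 31 small. The bound ones were rps-18 and the 5 shown above. The unbound ones were rpl-1, rps-7, rps-29, rps-13, rpl-21, rpl-34 and the divergent genes rps-10 and rpl-24.1, which share a site. At the bound members the pair lay 6 to 49 bp from the summit. At the unbound ones the nearest summit of the thresholded list was 1341 to 103499 bp away, and the strongest ranked signals in their windows ran from 17.6 at rps-7 to 66.9 at rpl-1. Of the sites in member windows 6 of 13 (46.2%) overlapped a thresholded peak, and so did 5 of 21 sites elsewhere (23.8%). The pair lay between 652 and 170 bp upstream of the members' 5′ ends. The letters aac stood directly before it at 13 of 13 member sites and at 16 of 21 sites elsewhere. These letters were not set in advance, so their count at member sites is a description. The sites of 4 of these unbound members are shown with 14 bases to each side, on the strand of the gene, so that they can be set beside those of the bound genes.
rps-29, chrIII:793793-793833, plus strand: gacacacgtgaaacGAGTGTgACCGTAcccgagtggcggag
rps-13, chrIII:6375147-6375187, minus strand: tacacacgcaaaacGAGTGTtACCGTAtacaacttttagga
rpl-21, chrIII:8130504-8130544, minus strand: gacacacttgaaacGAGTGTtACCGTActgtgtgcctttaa
rpl-34, chrIV:12268554-12268594, plus strand: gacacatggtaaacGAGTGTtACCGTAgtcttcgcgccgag

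The counts in lists of related genes were as follows. Of the genes for ubiquitin fusion proteins and the ribosome scaffold (ubl-1, ubq-2 and rack-1), ubq-2 was bound with a signal of 64.1. Of 50 ribosome biogenesis and nucleolar genes found in the annotation, 8 were bound, led by pro-1 with a signal of 215 and larp-1 with 213. Of 6 RNA polymerase I genes 1 was bound, rpac-19 with 107. Of 71 genes for proteins of the mitochondrial ribosome, a separate machine in the organelle, 5 were bound (7.04%), beside 39.5% for the cytosolic ones and 4.45% for all protein-coding genes.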

How the data were processed

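Binding was measured in 2 biological replicates of 1 group. The deposited lists hold, for each peak, a signal given by the authors whose scale is not stated, and a score, which per the file headers is the scaled irreproducible discovery rate (IDR); every peak of the thresholded lists has a score of at least 830. For aligner and peak caller the sources used here name nothing. The conservative thresholded list (2010 peaks) was the main list, the lists of replicate 1 (931) and replicate 2 (933) gave presence in each library, and unthresholded ranked lists gave the signals per library. In the ranked list of the series, 10 further columns were not used. Coordinates are ce11; genes came from Ensembl release 115 (WBcel235) and sequence from the RefSeq WBcel235 assembly.

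Summits were assigned to 5′ ends with Python 3.11.15, pandas 2.3.3 and numpy 2.4.6, and protein identities came from alignments of translated coding sequences with Biopython 1.88. Intervals are exact binomial 95% intervals (scipy 1.17.1). Genes are not replicates, so no test was made. Window assignment and word search were checked on simulated data. All bound members are named. Full values are given for the 20 strongest, and by rule the unbound members named were those called in 1 library, those in paralog pairs and the 5 with the highest ranked signal. The unbound members near the score threshold, without a ranked summit or with the paired words were named after their values were seen. The 5 6-mers near the most summits are named, which ties extend to 7. Members and lists were chosen with earlier results of these data known.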

Additional observations from a re-analysis of the deposited data

How the results depend on the processing

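Of 35 alternative counts, 31 stayed within 1.5 times the reported one and 4 moved further. Between 24 and 32 members were bound under each alternative list, window and gene assignment, except for 2. The 500 strongest peaks gave 21 (10 in the large subunit), against 1.62% of all protein-coding genes. With each summit given to the protein-coding gene with the nearest 5′ end alone, 21 members were bound, 14 large and 7 small subunit genes, so the higher share of the small subunit was reversed (22.6% against 28.0%). Leaving out a replicate gave 24 to 25 bound members, 12 to 14 of the large and 11 to 12 of the small subunit. Of 7 alternative medians, 4 moved and 3 stayed. A median position counted as moved if it changed by more than 4.95 bp, the standard deviation of the 2 single-library medians. For a median signal any change counted. The median summit position (negative is upstream) was -301 bp from the start of the coding sequence, and -295 to -288 bp from the 5′ end in single libraries. The median signal of members with the summit in no other protein-coding window was 119. ACCGTA lay within 25 bp of 32.3% and within 100 bp of 48.4% of member summits, and GAGTGT within 25 bp of 22.6% and within 100 bp of 38.7%, all inside the exact intervals of the 50 bp shares. There were 2 libraries, read depth is unknown from the lists, and no untagged control was analysed here, so weak sites such as the 5 found in neither single-library list rest on the joint list. No paired analysis was possible because there was 1 group.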
